A study of Mus musculus with 12 samples.

Results

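The knockdown of Nr6a1 in mouse cells without Dicer1 was described across gene families and pathways. The comparison set 3 libraries of KO_siNr6a1 against 3 libraries of KO_siCtrl, 6 of the 12 libraries sequenced. Its members are the genes with at least 1 FPKM in 3 or more of the 12 libraries, 11801 of the 21881 genes listed. FPKM counts sequenced fragments relative to transcript length and to the size of the library, so levels can be set side by side between genes as well as between libraries.

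The cells were mouse mesenchymal stem cells of the C57BL/6 strain, fibroblast-like cells of bone marrow, which had been immortalized and grown as monoclonal lines. Both groups were Dicer -/- and so shared the loss of the nuclease that cuts microRNA precursors. KO_siCtrl received a nontargeting control siRNA and KO_siNr6a1 an siRNA against Nr6a1, each at 20 nM, and RNA was taken after 48 h. Other libraries held the same Dicer -/- cells with a let-7g duplex (KO_let-7g, 3 libraries) and Dicer f/f cells with the control siRNA (WT_siCtrl, 3 libraries), and they entered the fit and a few levels below. Neither the number of clones nor the source of each library as its own culture is given in the labels. The p-values therefore rest on library-to-library spread, part or all of which may be technical.

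Nr6a1, also called germ cell nuclear factor, is an orphan nuclear receptor that binds DNA at repeats of the hormone receptor motif AGGTCA and acts mostly as a repressor. It is known for shutting off pluripotency genes when embryonic stem cells differentiate and for its roles in the midgestation embryo and in germ cells. An siRNA cuts the transcript that it pairs with in full, and it can also lower other transcripts whose 3′ UTR pairs with its seed, the bases near its 5′ end.

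Nr6a1 was at 12.6, 12.3 and 10.2 FPKM in the 3 KO_siCtrl libraries and at 3.43, 4.30 and 3.31 in the 3 KO_siNr6a1 libraries. The groups did not overlap, and the highest knockdown library lay under the lowest control library. The fall was called (log2 fold change -1.44, SE 0.147, adjusted p = 7.34e-05), where fold changes are differences of log2(FPKM + 1) and adjusted p-values are Benjamini-Hochberg values of the moderated test in limma over all 11801 genes. A two-sided exact permutation test of the 6 libraries gave p = 0.1, the smallest that 3 against 3 allows. WT_siCtrl had 1.16, 0.945 and 1.25 FPKM of Nr6a1, lower than each of the 3 knockdown libraries. Dicer1 transcripts were at 3.9, 3.63 and 4.06 FPKM in KO_siCtrl and 3.58, 2.82 and 3.04 in KO_siNr6a1, without overlap of the groups, and the difference was not called (log2 fold change -0.23, SE 0.132, adjusted p = 0.214, exact permutation p = 0.1). Weighting the libraries by quality in limma called it (adjusted p = 0.0325).

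**Figure D1:**
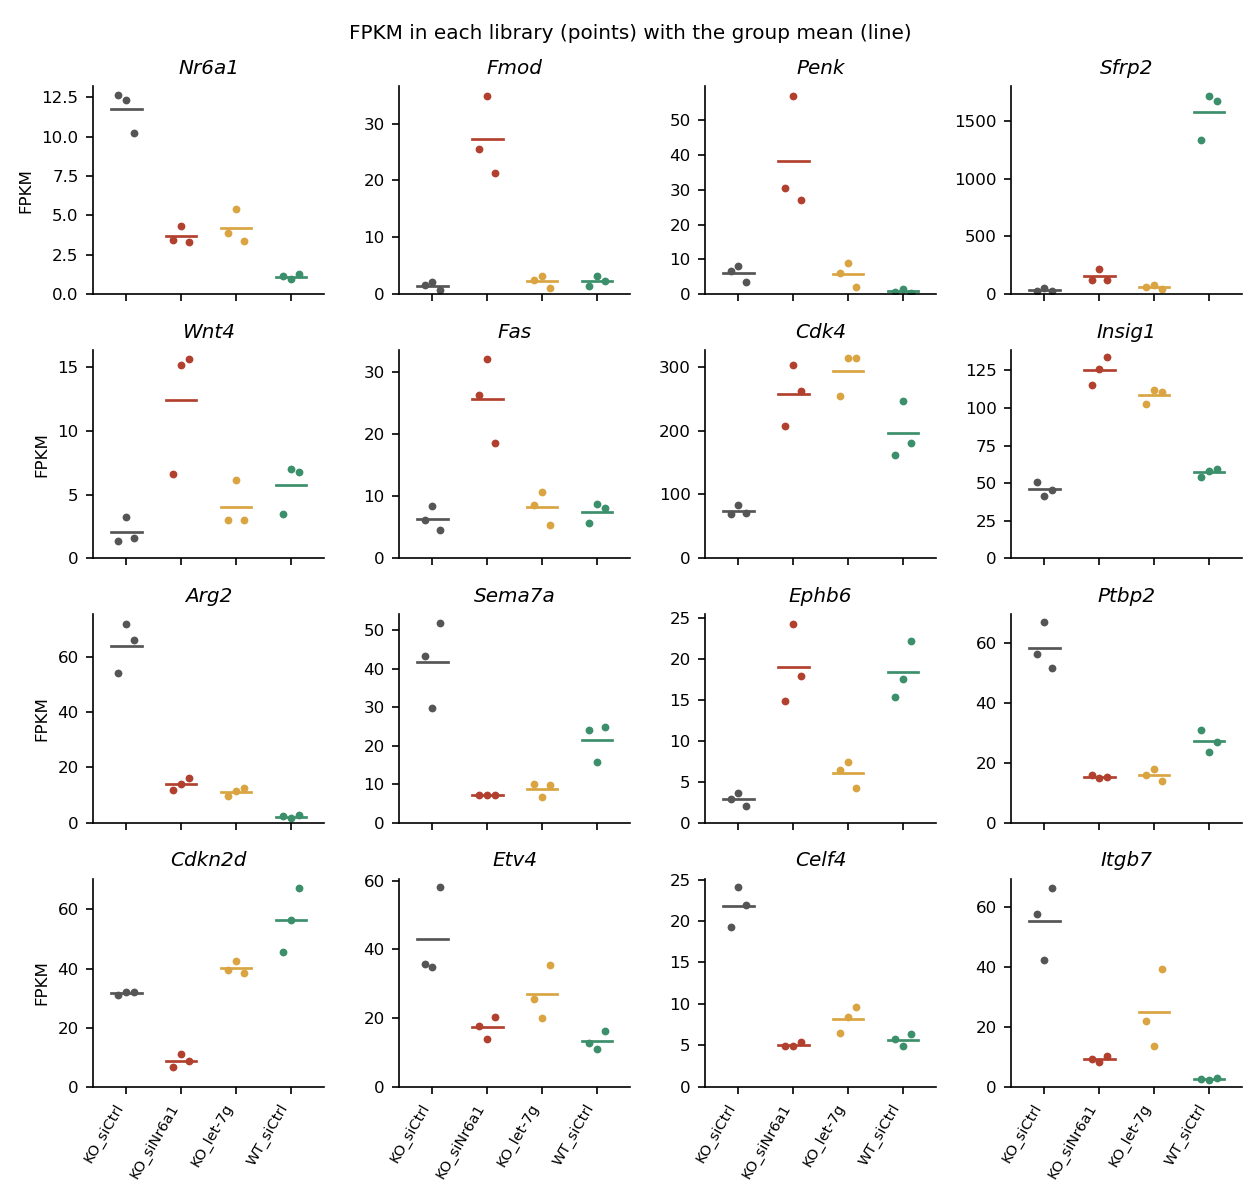
FPKM of 16 genes in each library of the 4 groups (x axis), with points for single libraries, a line for the mean of 3 libraries, and a linear y axis from 0 for each gene. Nr6a1 was between 3.31 and 4.30 FPKM in KO_siNr6a1 and between 10.2 and 12.6 in KO_siCtrl, and Fmod, Penk, Wnt4 and Fas were highest in KO_siNr6a1 among the 4 groups.

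The relative depth of the libraries, read from the steps between low values, was 1 to 1.31 in KO_siCtrl and 1.13 to 1.57 in KO_siNr6a1, with total reads unknown. Summed over 24 mesenchymal stem cell markers, of which 5 of 22 tested were called higher and 4 lower, the level was 3019 to 3229 FPKM in KO_siCtrl and 3093 to 3331 in KO_siNr6a1. The block on replicate number gave 6 higher and 7 lower. There were, without single libraries, 3 higher without KO_siCtrl replicate 1 or KO_siNr6a1 replicate 1 and 2 lower without KO_siCtrl replicate 0 or KO_siCtrl replicate 1 or KO_siNr6a1 replicate 2. Thy1, which is among the defining markers of such cells, was listed at 0 in all 6 libraries. Blood cell markers summed to 42.2 to 51.6 FPKM against 54.7 to 73.8, most of it from Cd74 (log2 fold change 0.66, adjusted p = 0.0873), and of 3 members tested 0 were called higher and Cd14, named after its values were seen, was called lower (log2 fold change -0.44, adjusted p = 0.0481), a call lost in 13 of 23 other settings (adjusted p up to 0.148). Hbb-b1 was listed at 0 in both groups and Cd3e, Cd4 and Cd8a in KO_siNr6a1. Epithelial markers summed to 1.97 to 3.24 FPKM against 0.56 to 0.923, and Krt19 was the 1 member called, lower (-0.92). Endothelial (3.07 to 3.31 against 3.38 to 4.08 FPKM) and neural markers (3.73 to 5.76 against 4.76 to 5.42) were low in both groups, and skeletal muscle markers (24.5 to 31.7 against 30.7 to 31.0) came mostly from Acta1, with Myod1 and Myf5 listed at 0. The part of these markers in the results was not tested. In bulk RNA, fewer cells of a type and less RNA per cell cannot be told apart.

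Of the 11801 genes, 3474 (29.4%) were called at an adjusted p under 0.05, 1556 of them higher in KO_siNr6a1 (13.2% of all tested) and 1918 lower (16.3%). These percentages are the background for the counts of members below that come from this fit. Counts under other settings belong beside the calls of that setting over all genes, which for library weights were 2370 higher and 3158 lower. Counts against KO_let-7g belong beside 13.3% higher and 27.6% lower. The 6 libraries separated without overlap for 5444 genes (46.1%), and of the 3474 called genes 3451 did so, 1543 upward and 1908 downward. Where the groups of a called gene are said below to be apart, this therefore adds little to its call. Most changes were small: of the called genes 310 moved 1 log2 unit or more, 192 of them up and 118 down. The median over all genes, to be read beside the median of each list below, was -0.06. With the replicate number as a block, 5248 genes were called, 2161 higher and 3087 lower, and they held all 3474. The direction of the majority depended on scaling, since median of ratios scaling called 1799 genes higher and 1511 lower (54.4% of calls higher, against 44.8% as deposited).

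**Figure D2:**
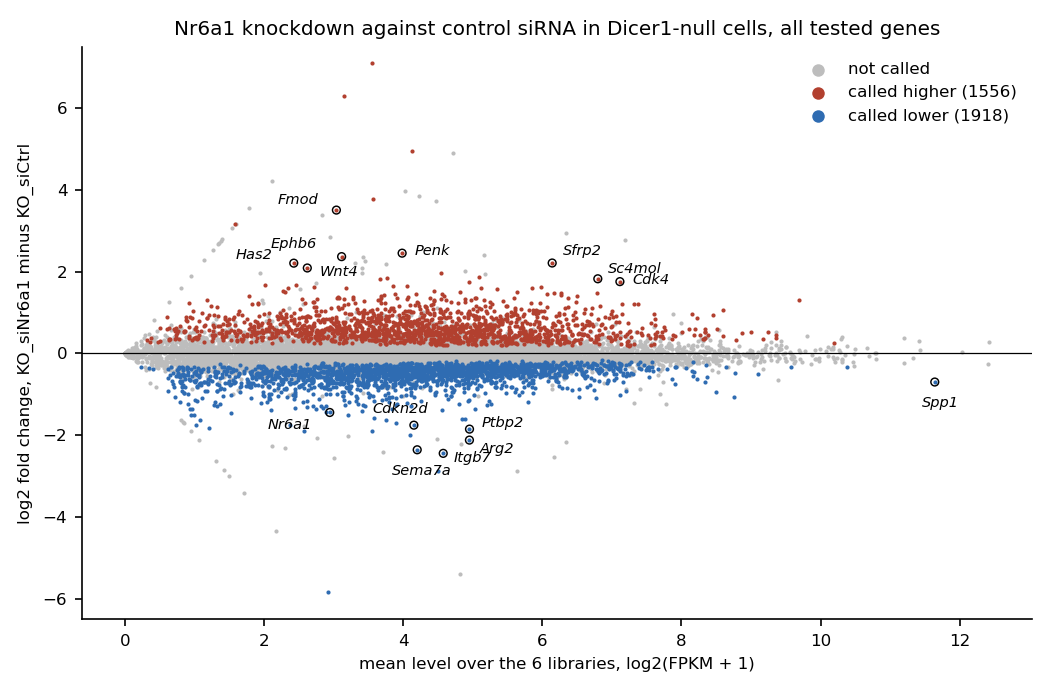
Log2 fold change of KO_siNr6a1 against KO_siCtrl (y axis) over the mean level of the 6 libraries in log2(FPKM + 1) (x axis), 1 point per tested gene, with the 1556 genes called higher in red, the 1918 called lower in blue and the rest in grey. Most called genes lie within 1 log2 unit of 0, and the circled genes are described in the text.

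The largest called rise of a protein-coding gene was that of Fmod, which encodes fibromodulin, a small leucine-rich proteoglycan that binds collagen fibrils. Fmod was at 1.62, 2.21 and 0.723 FPKM in KO_siCtrl and at 25.6, 34.9 and 21.4 in KO_siNr6a1 (log2 fold change 3.51, SE 0.313, adjusted p = 4.26e-05). All 3 knockdown libraries were far above all 3 controls. Penk, the precursor of the enkephalin opioid peptides, went from 6.63, 8.19 and 3.40 to 30.4, 56.9 and 27 FPKM (log2 fold change 2.45, SE 0.443, adjusted p = 0.0021), with 1 knockdown library well above the other two. Ephb6, an ephrin receptor that lacks kinase activity, was at 2.87, 3.64 and 2.08 FPKM in the controls and 14.9, 24.4 and 17.9 after knockdown (log2 fold change 2.37, adjusted p = 5.56e-05). Sfrp2, a secreted Wnt-binding protein, rose from 23.4, 50.6 and 26.9 to 122, 222 and 127 FPKM (log2 fold change 2.21, adjusted p = 0.000383), and Dicer f/f cells held far more of it (mean 1575). The other coding genes among the 15 largest rises were Has2, a hyaluronan synthase (2.21), Wnt4, a Wnt ligand (2.09), Rgs4, a regulator of G protein signalling (1.97), Mgst1, a microsomal glutathione transferase (1.87), the death receptor gene Fas (1.86), the sterol demethylation gene Sc4mol (1.83) and the matrix gene Smoc2 (1.83).

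The largest called falls of protein-coding genes were in genes of varied kinds. Itgb7, an integrin subunit best known from lymphocytes, was at 57.7, 42.4 and 66.4 FPKM in KO_siCtrl and 9.18, 8.27 and 10.3 in KO_siNr6a1 (log2 fold change -2.44, SE 0.294, adjusted p = 0.000192). Sema7a, a membrane-anchored semaphorin, fell from 43.3, 29.9 and 51.8 to 7.06, 7.20 and 7.12 FPKM (log2 fold change -2.36, SE 0.217, adjusted p = 4.57e-05). Its knockdown libraries lay close together, and the control libraries were spread and all higher. Arg2, the mitochondrial arginase, fell from 54.0, 71.8 and 66.0 to 11.7, 14 and 16.2 FPKM (log2 fold change -2.12, SE 0.169, adjusted p = 2.86e-05) and averaged 2.20 in Dicer f/f cells. Groups did not overlap for any of these 3 genes, which was a condition for being among the 15 largest rises and falls. The splicing regulator genes Celf4 (-1.91) and Ptbp2 (-1.85), the keratin gene Krt13 (-1.89), the peptide transporter gene Slc15a3 (-1.83), the cyclin-dependent kinase inhibitor gene Cdkn2d (-1.75), Apoc2, an activator of lipoprotein lipase (-1.75), the huntingtin partner gene Hap1 (-1.75), the sulfotransferase gene Chst2 (-1.70) and the granzyme gene Gzme (-1.64) were also among the 15 largest falls.

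KO_let-7g was another group of the Dicer -/- cells in which Nr6a1 was low (3.87, 5.38 and 3.39 FPKM), and its Nr6a1 level was not called different from that of KO_siNr6a1 (log2 difference -0.14, adjusted p = 0.466). Over all genes, 1564 (13.3%) were called higher and 3262 (27.6%) lower in KO_siNr6a1 than in KO_let-7g. Of the 15 largest rises, 10 were called higher than in KO_let-7g and 0 lower. The rises were picked for high values in the same KO_siNr6a1 libraries, and the falls for low ones. That choice favours calls the same way against KO_let-7g, so these counts cannot be set against the shares of all genes. Fmod was at 2.54, 3.25 and 1.03 FPKM in KO_let-7g (log2 difference of the knockdown from KO_let-7g 3.15, adjusted p = 4.06e-05), and Penk at 5.97, 9.02 and 2.06 (2.63, adjusted p = 0.000898). Of the 15 largest falls, 10 were not called different from KO_let-7g, 4 were lower (Itgb7, Cdkn2d, Celf4 and Hap1) and 1, Rpph1, was higher. Arg2 was at 9.65, 11.6 and 12.5 FPKM in KO_let-7g (log2 difference 0.28, adjusted p = 0.205) and Ptbp2 at 15.8, 18 and 13.8 (-0.04, adjusted p = 0.815). Cdkn2d stood apart from these, with 31.1, 31.9 and 32.0 FPKM in KO_siCtrl, 6.76, 11 and 8.79 in KO_siNr6a1 and 39.6, 42.4 and 38.4 in KO_let-7g (-2.08, adjusted p = 1.02e-05).

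Entries for small noncoding RNAs were among the extremes, although poly(A) RNA was sequenced and such RNAs mostly lack a poly(A) tail. Of 159 such entries tested, 7 were called higher and 5 lower. Snord12 was listed at 0 in the 3 KO_siCtrl libraries and at 112, 176 and 128 FPKM in KO_siNr6a1. Mir707 was listed at 0 in KO_siCtrl and at 89.0, 85.6 and 62.1 in KO_siNr6a1, and Snora78 at 0 and at 7.37, 10.8 and 6.23. Mir2861 was the reverse, at 35, 81.5 and 63.0 in KO_siCtrl and listed at 0 in KO_siNr6a1. Snora5c was listed at 0 in 2 control libraries and at 29.7 FPKM in the other, against 96.8, 79.0 and 114. Snord12 was also present in KO_let-7g (111, 206 and 142 FPKM) and in WT_siCtrl (564, 160 and 215). So was Snora78 (5.38, 9.18 and 20.8 in KO_let-7g and 7.87, 7.59 and 6.80 in WT_siCtrl). Mir707 was listed at 0 in KO_let-7g and at 91.5, 0 and 165 in WT_siCtrl. Rpph1, the RNA of ribonuclease P, fell from 41.4, 78.7 and 68.1 to 5.58, 13.8 and 5.02 FPKM (log2 fold change -2.88, SE 0.403, adjusted p = 0.000473). Very short entries have few fragments per FPKM, and no fold is given for those listed at 0 in a whole group. The call of Snora5c was lost when any 1 of the 6 libraries but KO_siCtrl replicate 2 was left out (adjusted p up to 0.0874), and that of Mir2861 when any 1 of the 6 was (up to 0.0767).

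Genes called higher often shared a 6-base word in their 3′ UTR, AGCCTT, and some sites are shown because carriers made up most of the genes called higher. Of 4093 words of 6 bases, each carried by at least 100 tested genes, AGCCTT was the one whose carriers stood highest in this comparison. It was picked from that ranking and had been seen in earlier results of these data, so its values are a description with no test. Sites of 30 bases from the longest annotated 3′ UTR (GENCODE M21 on GRCm38), with the word in capitals, were:
Cdk4: gagaatattttaAGCCTTaaataacaagtc
Sc4mol: cgttgccttttaAGCCTTttacatacactg
Insig1, first site: gccatatttcaaAGCCTTgaatcaaaatga
Insig1, second site: aaaaccaatctgAGCCTTgtattctcgtaa
Has2: tagctgcacagaAGCCTTgtggcgaagcaa
Tcf7, second site: aacttaaccctgAGCCTTgaaaaacaagtt
Cdk4, the kinase partner of D cyclins, carries 1 copy and rose from 70.0, 83.6 and 70.3 to 207, 303 and 262 FPKM (log2 fold change 1.76, SE 0.172, adjusted p = 6.1e-05).

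Of the 11219 tested genes with an annotated 3′ UTR, 4786 carried AGCCTT. Among carriers 21.8% were called higher and 12.1% lower (median log2 fold change 0.03). Among the 6433 genes without it 7.48% were called higher and 19.7% lower (median -0.11). The share called higher rose with copy number, from 19.2% with 1 copy to 23.2% with 2 and 29.7% with 3 or more. Genes with more copies also had longer 3′ UTRs (medians of 1603, 2457 and 3752.5 bases), and the shares by copy number were not computed within classes of length. In 3 equal classes of 3′ UTR length, 23.5% of carriers and 6.77% of the others were called higher among the shortest 3′ UTRs, 23.96% and 8.43% in the middle class, and 20.3% and 7.65% among the longest. Of the genes called higher 68.5% carried the word, against 31.4% of those called lower and 42.7% of all. Carriers called lower numbered 580, among them Nr6a1 with 3 copies and Cdkn2d with 1. Copy numbers given below are mostly those of genes that rose. When only genes without the word were fitted, 1685 of 6433 were called, 462 higher and 1223 lower. In KO_siNr6a1 against KO_let-7g, whose fold changes do not use the control siRNA libraries, the word ranked 481 from the top. There 15.5% of carriers against 12.4% of the others were called higher, with the spread taken from all 12 libraries. The sequences of the siRNAs were not used here, so the word could not be set against their seeds, and its part in the rises was not tested.

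A second word of 7 bases, AATATAA, was the lowest of 15610 such words in this comparison, again picked from the ranking. Carriers numbered 1734, of which 24.5% were called lower and 9.92% higher, against 15.003% and 14.3% of the 9485 genes without it. In the same 3 classes of 3′ UTR length, 38.96% of carriers against 13.7% of the others were called lower among the shortest, 28.9% against 16.5% in the middle class and 20.5% against 14.9% among the longest. The share called lower did not rise with copy number, at 24.9% with 1 copy, 22.8% with 2 and 23.7% with 3 or more. Against KO_let-7g the word was also the lowest of 15610, with 33.3% of carriers called lower against 26.7%, but both comparisons use the same KO_siNr6a1 libraries. Examples, with the word in capitals, came from genes called lower:
Nek2, 2 overlapping copies: ataaattttccAATATAATATAAatctatt
Rpa2: gcgtggtctgtAATATAAgtgttcatatgt
Sema3e, first site: tttgtcttatgAATATAAtcaaaatttata
Nek2, a kinase of centrosome separation, fell from 63.5, 59.5 and 62.5 to 36.2, 36.3 and 31.0 FPKM (log2 fold change -0.83, SE 0.0781, adjusted p = 5.22e-05), and Rpa2, a subunit of the single-stranded DNA binding complex, from 67.9, 60.8 and 70.8 to 41.9, 42.1 and 37.9 (log2 fold change -0.70, adjusted p = 0.000205). Both were lower than in KO_let-7g too (Nek2 -1.41, adjusted p = 2.78e-06, Rpa2 -0.86, adjusted p = 3.86e-05). The part of this word in the falls was not tested.

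**Figure D3:**
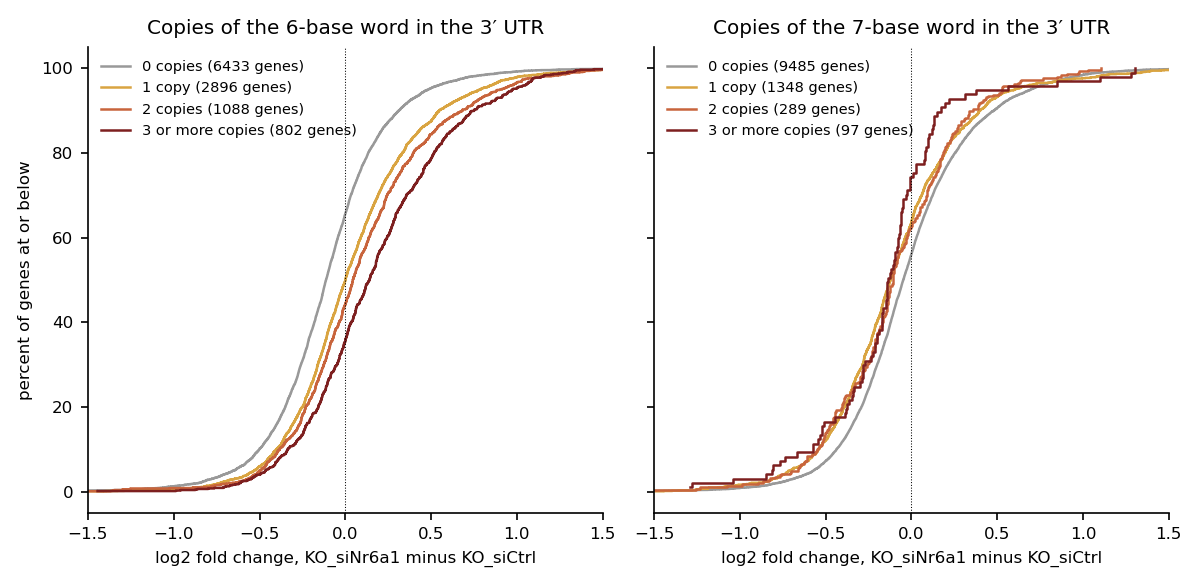
Cumulative percent of tested genes (y axis) at or below each log2 fold change of KO_siNr6a1 against KO_siCtrl (x axis), by the number of copies of the 6-base word (left) and the 7-base word (right) in the 3′ UTR. Curves of carriers of the 6-base word lie to the right of the curve of the 6433 genes without it, and those of the 7-base word lie to the left of the 9485 genes without it over most of the range.

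Cholesterol and fatty acid synthesis had the highest share of members called higher of all lists with at least 10 tested members. The pathway builds sterols from acetyl-CoA through mevalonate and squalene, and its genes are turned on together by the SREBP transcription factors. In it 27 of 33 tested members were called higher and 0 lower, with a median log2 fold change of 0.71, and the lowest member was at 0.23. The 33 members were above their control mean in KO_siNr6a1, and the 6 not called were Dhcr7, Fads2, Srebf1, Tm7sf2, Stard4 and Acss2. With 1 library left out, 25 to 29 were called higher, and with the replicate block 28 were.

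**Figure D4:**
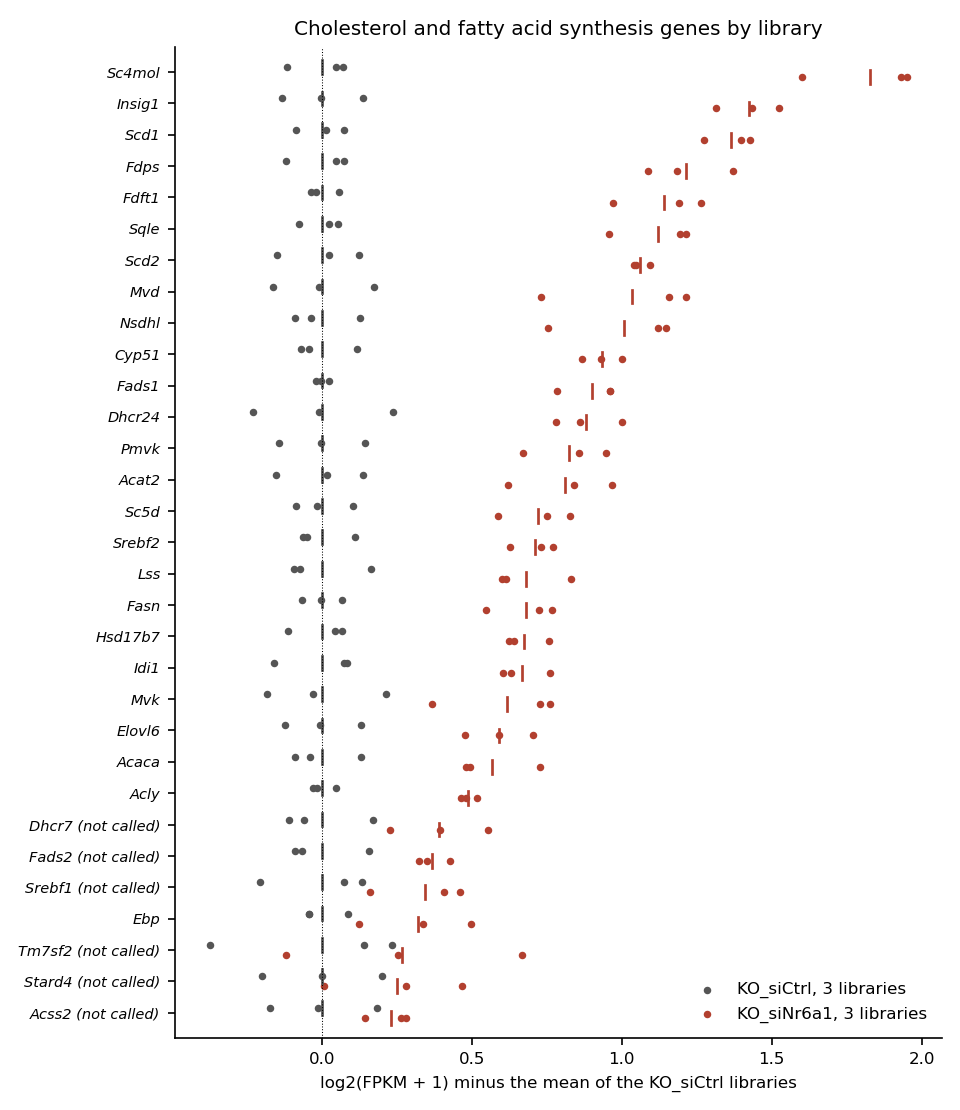
Level of each of 31 cholesterol and fatty acid synthesis genes in single libraries, as log2(FPKM + 1) minus the mean of the 3 KO_siCtrl libraries (x axis), with a vertical line at each group mean of 3 libraries. The knockdown means lie between 0.23 and 1.83 to the right of the control means for all 31 genes shown, of which 25 were called.

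Rises were found at successive steps of the pathway. Fdft1, which makes squalene, went from 23.8, 25.5 and 24.1 FPKM in KO_siCtrl to 48.9, 60.2 and 57.1 in KO_siNr6a1 (log2 fold change 1.14, adjusted p = 5.92e-05) and Sqle, which oxidises it, from 72.6, 66.3 and 71.2 to 137, 164 and 161 (log2 fold change 1.12, adjusted p = 6.1e-05). No library of the groups overlapped for these genes. Sc4mol, which removes methyl groups from sterols, had the largest rise of the list, from 61, 60.002 and 53.5 to 178, 224 and 227 FPKM (log2 fold change 1.83, SE 0.178, adjusted p = 5.96e-05). Among the regulators, Insig1, which holds SREBP in the endoplasmic reticulum, rose from 50.5, 41.8 and 45.8 to 115, 126 and 134 (log2 fold change 1.42, SE 0.085, adjusted p = 7.87e-06). Srebf2, which encodes the SREBP of sterol synthesis, rose by less (log2 fold change 0.71, adjusted p = 0.000198), and Srebf1 was not called (log2 fold change 0.34, adjusted p = 0.207). Scd1, which desaturates fatty acids, rose from 53.3, 51.2 and 47.7 to 124, 135 and 138 FPKM (log2 fold change 1.37, adjusted p = 6.77e-05). Srebf2 and the members not called were named after their values were seen.

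Members with and without AGCCTT were called higher. Of 18 carriers 17 were called higher (median 0.92), beside 21.8% of the carriers among all genes. Of 15 members without the word 10 were (median 0.62), beside 7.48% of all genes without it. The word was picked on these same fold changes, and its part in this list was not tested. Against KO_let-7g 18 of the 33 were called higher and 0 lower, beside 13.3% and 27.6% of all genes. Among the 18 were Sc4mol (0.88, adjusted p = 0.00251) and Sqle (0.52, adjusted p = 0.0035), while Insig1 (0.20, adjusted p = 0.0804) and Scd1 (0.33, adjusted p = 0.0756) were not called different. Of the 23 members with a RefSeq promoter (GRCm38.p6, 250 bases before to 50 after the start), 0 held the sterol response element TCACNCCAC on either strand. It was in a promoter of 1.32% of the 9265 tested genes with one and, counted by promoter, in 1.24% of all 32851. The 0 says only that these letters are not in this window.

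**Figure D5:**
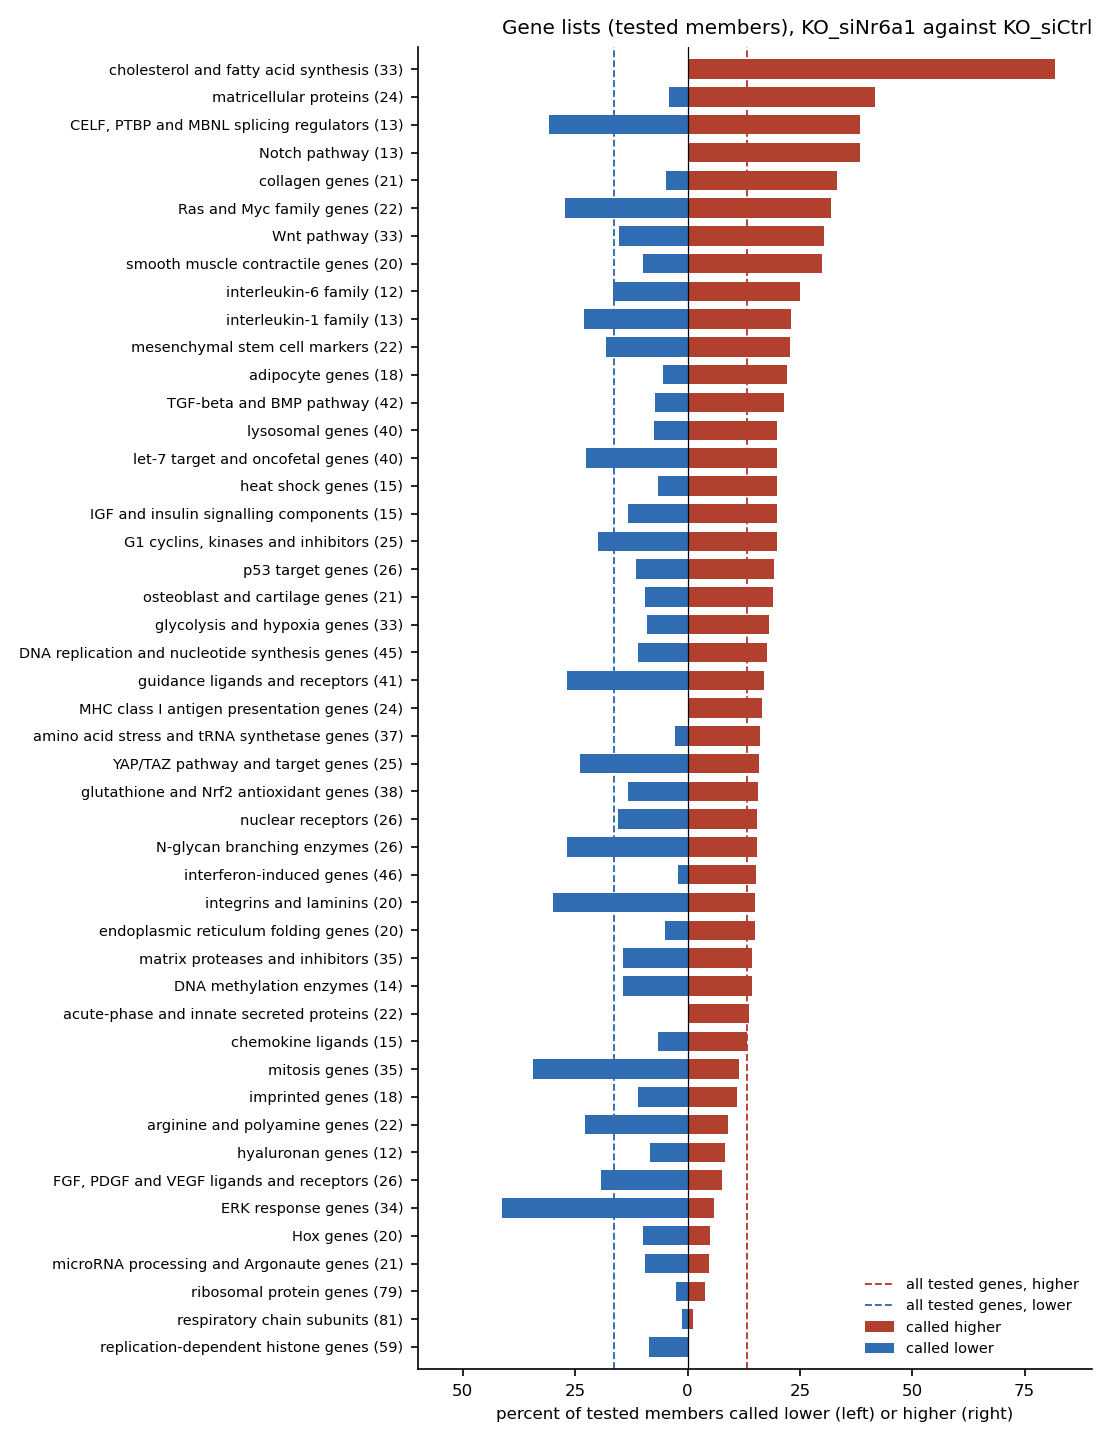
Percent of tested members called higher (bars to the right) and lower (bars to the left) in KO_siNr6a1 against KO_siCtrl, for lists with at least 10 tested members, whose number is in brackets. Dashed lines mark the 13.2% called higher and 16.3% called lower among all tested genes, and cholesterol and fatty acid synthesis has the longest bar to the right and ERK response genes the longest to the left.

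ERK response genes had the highest share of members called lower of the lists with at least 10 tested. The kinase ERK, driven by growth factor receptors through Ras, induces its own feedback inhibitors, the dual-specificity phosphatases (Dusp), Sprouty and Spred proteins, and ETV transcription factors. Of this list 2 of 34 tested members were called higher and 14 lower, with a median log2 fold change of -0.36. Etv4 went from 35.7, 35 and 58.3 FPKM in KO_siCtrl to 17.6, 14 and 20.3 in KO_siNr6a1 (log2 fold change -1.24, SE 0.242, adjusted p = 0.0033), with 1 control library far above the other two and no overlap of groups. Dusp6, a phosphatase that acts on ERK, fell from 22.5, 24.6 and 28.7 to 13.5, 13.1 and 15.3 (log2 fold change -0.81, SE 0.13, adjusted p = 0.00109). Dusp5, its nuclear counterpart, fell from 32.3, 32.3 and 39.6 to 18.3, 23.3 and 21.9 (log2 fold change -0.69, adjusted p = 0.00389), and Spred3 from 4.87, 5.09 and 6.72 to 2.31, 2.39 and 2.52 (log2 fold change -0.93, adjusted p = 0.000529). The groups were apart for all 4 genes. Spry4, Etv5, Etv1, Dusp4, Ier3, Phlda1, Fosb, Jun, Hbegf and Ereg were also called lower (Ereg not without KO_siCtrl replicate 2 or KO_siNr6a1 replicate 1), and Fosl2 (0.69) and Spred1 (0.56) higher.

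Blocking on the replicate number called 6 higher and 17 lower. Calls numbered 1 higher without the filter on low values. Without single libraries the calls were 1 higher without KO_siCtrl replicate 1 or KO_siCtrl replicate 2 or KO_siNr6a1 replicate 0 or KO_siNr6a1 replicate 2 and 9 lower without KO_siCtrl replicate 2. The control library that was high for Etv4 was KO_siCtrl replicate 2. Of the 13 carriers of AGCCTT 5 were called lower and of the 21 others 9 were, beside 12.1% and 19.7% among all genes. Against KO_let-7g 8 of the 34 members were called lower and 4 higher, near the 27.6% and 13.3% of all genes. Dusp6 was not called different (0.09, adjusted p = 0.619) while Dusp5 was higher (0.74, adjusted p = 0.00169).

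Ligands of the EGF receptor, which acts upstream of ERK, were also mostly on the lower side, and Hbegf and Ereg stand in both lists. Of the EGF family 2 of 9 tested members were called higher and 5 lower, with a median log2 fold change of -0.32. Hbegf, heparin-binding EGF, fell from 19, 18.3 and 21.9 to 9.10, 8.11 and 9.79 FPKM (log2 fold change -1.05, SE 0.249, adjusted p = 0.00909) and Areg, amphiregulin, from 2.88, 3.25 and 3.42 to 1.64, 1.37 and 1.21 (log2 fold change -0.80, adjusted p = 0.00258). The groups were apart for both genes. Lrig1, an inhibitor of these receptors, fell as well, from 55.0, 50.9 and 60.5 to 25.7, 22.8 and 24 (log2 fold change -1.16, adjusted p = 9.95e-05), whereas the receptor gene Erbb2 (0.33, its call lost without any 1 of 5 of the 6 libraries, with adjusted p up to 0.0845) and the ligand gene Nrg1 (0.60) were called higher. Areg was lower than in KO_let-7g (-1.5, adjusted p = 4.1e-05), and Hbegf was not called different (-0.24, adjusted p = 0.464). The calls of the family were few, and 8 members lay below the filter. Quantile scaling called 3 lower. Leave-one-out counts were 1 to 3 higher over the libraries left out in turn and 3 lower without KO_siCtrl replicate 2 or KO_siNr6a1 replicate 1.

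The Wnt pathway, in which secreted Wnt ligands stabilise beta-catenin so that it activates TCF and LEF factors, held calls among its ligands, secreted antagonists and transcription factors. In it 10 of 33 tested members were called higher and 5 lower, with a median log2 fold change of 0.07, with 28 members below the filter. Among ligands, Wnt4 rose from 1.36, 3.27 and 1.62 to 6.60, 15.2 and 15.6 FPKM (log2 fold change 2.09, SE 0.366, adjusted p = 0.00176) and Wnt7b fell from 3.17, 1.63 and 3.57 to 0.23, 0.189 and 0.181 (log2 fold change -1.62, SE 0.186, adjusted p = 0.000151). The secreted antagonists Sfrp2 (2.21), Sfrp1 (1.64), Wif1 (1.3) and Dkk3 (1.02) were all called higher. Dkk3 was at 66.1, 62.5 and 55.3 FPKM in KO_siCtrl and 117, 136 and 122.9 in KO_siNr6a1. Inside the cell, Ctnnb1, which encodes beta-catenin, rose from 98.5, 99.4 and 80.3 to 216, 219 and 204.8 (log2 fold change 1.2, SE 0.114, adjusted p = 5.31e-05) and the transcription factor gene Tcf7 from 4.52, 5.04 and 5.16 to 10.7, 14.1 and 10.9 (log2 fold change 1.12, adjusted p = 8.35e-05). Neither overlapped between groups. Lef1 (0.87) and Tcf7l1 (0.64) were called higher and Tcf7l2 (-0.44) lower.

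Of the 20 Wnt members with AGCCTT 8 were called higher, among them Ctnnb1 with 4 copies and Tcf7 with 2. Of the 13 without it 2 were. Among all genes 21.8% of carriers and 7.48% of the others were called higher. Ctnnb1 (0.14, adjusted p = 0.338) and Tcf7 (0.08, adjusted p = 0.634) were not called different from KO_let-7g. Among the secreted members, Sfrp2 (1.27, adjusted p = 0.00626), Wnt4 (1.39, adjusted p = 0.0111) and Dkk3 (1.89, adjusted p = 1.76e-05) were each higher than in KO_let-7g, where Dkk3 was at 36, 41.7 and 24 FPKM. Other fits gave 8 lower with library weights. Single libraries left out gave 3 lower without KO_siNr6a1 replicate 2.

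In the TGF-beta and BMP pathway, whose receptors signal through Smad proteins, 9 of 42 tested members were called higher and 3 lower, with a median log2 fold change of 0.10. Smad9, a Smad of BMP receptors, rose from 2.33, 3.84 and 2.20 to 8.42, 12.1 and 11.5 FPKM (log2 fold change 1.63, SE 0.181, adjusted p = 0.000122), and Smad1 (0.52) and Smad5 (0.68), the related BMP Smads, were called higher too. Id2 and Id3, inhibitors of helix-loop-helix factors and common targets of BMP signalling, rose, Id2 from 40.8, 50.05 and 32.7 to 66.8, 101 and 90.7 (log2 fold change 1.05, adjusted p = 0.00221) and Id3 with log2 fold change 1.25, adjusted p = 0.00343. Groups were apart for Smad9 and Id2. Tgfbr3, the coreceptor betaglycan, went from 57.2, 55.2 and 46.3 to 99.6, 104 and 96.8 FPKM (log2 fold change 0.91, adjusted p = 0.00136) and was higher than in KO_let-7g (1.23, adjusted p = 0.000143). The ligand gene Gdf11 (-0.82), the procollagen protease gene Bmp1 (-0.61) and Ltbp3 (-0.52), which holds latent TGF-beta, were called lower. Of the 9 called higher 7 carried AGCCTT, as did 25 of the 42 tested, beside 68.5% of all genes called higher. Calls under the replicate block were 15 higher and 6 lower. Under other settings there were 17 higher and 5 lower with library weights.

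Several matrix families had more members called higher than lower. Matricellular proteins are secreted proteins that modulate how cells meet the matrix, and 10 of 24 tested members were called higher and 1 lower, with a median log2 fold change of 0.32. Smoc1, a calcium-binding matrix protein, rose from 1.84, 2.24 and 1.69 to 6.73, 7.85 and 7.48 FPKM (log2 fold change 1.52, SE 0.11, adjusted p = 1.7e-05) and its relative Smoc2 from 7.92, 7.44 and 3.04 to 23.7, 25.3 and 19.9 (log2 fold change 1.83, adjusted p = 0.00109). Tnc, tenascin C, rose from 4.71, 4.76 and 4.44 to 11.9, 16 and 7.78 (log2 fold change 1.14, adjusted p = 0.00479), still far under Dicer f/f cells (mean 305). The groups were apart for all 3 genes. Postn, periostin, was called higher as well (log2 fold change 1.68, adjusted p = 0.0121). The 1 member called lower was the most abundant, Spp1, osteopontin, at 3903, 4318 and 4009 FPKM in KO_siCtrl and 2378, 2761 and 2405 in KO_siNr6a1 (log2 fold change -0.70, adjusted p = 0.00246), a call lost without the filter on low values (adjusted p = 0.0564). Of 17 members without AGCCTT 7 were called higher, and of 7 carriers 3 were, beside 7.48% and 21.8% among all genes. With the replicate block, 10 were called higher and 2 lower. Other settings gave 0 lower without the filter on low values and 2 lower with library weights. Leaving out single libraries gave 6 higher without KO_siCtrl replicate 2.

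Collagens form the fibrils of the matrix. Of the collagen genes 7 of 21 tested members were called higher and 1 lower, with a median log2 fold change of 0.32. Col1a1, the main chain of type I collagen, was at 243, 235 and 230.2 FPKM in KO_siCtrl and 346, 387 and 343 in KO_siNr6a1 (log2 fold change 0.60, SE 0.122, adjusted p = 0.00402), and its partner Col1a2 at 295, 285 and 269 and 384, 385 and 400.4 (log2 fold change 0.46, adjusted p = 0.00195). The minor fibrillar chains Col5a1 (0.54) and Col5a2 (0.43) and the fibril-associated Col12a1 (1.36) were called higher, and Col8a1 (-0.65) was called lower. Col1a1 was above KO_let-7g too (0.94, adjusted p = 0.000179). The counts also came to 4 lower without the filter on low values, 4 lower with library weights, and 2 lower with the 6 libraries alone. There were, without single libraries, 0 lower without KO_siCtrl replicate 2 or KO_siNr6a1 replicate 1, 2 lower without WT_siCtrl replicate 2.

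Other matrix families were mixed. Among small leucine-rich proteoglycans, 8 of which were tested, Fmod was called higher and Podnl1, podocan-like 1, lower (51.4, 50.9 and 68.6 against 21.8, 22.4 and 24.6 FPKM, log2 fold change -1.26, adjusted p = 0.000342). Blocking on the replicate number called 2 higher and 1 lower. Calls numbered 2 higher without the filter on low values, 2 higher under median of ratios scaling, 2 higher with library weights, and 2 higher with the 6 libraries alone. Without single libraries the calls were 2 higher without KO_let-7g replicate 1 or KO_let-7g replicate 2. Of hyaluronan genes 1 of 12 tested members, Has2, was called higher and 1 lower. For this list the replicate block gave 2 higher and 1 lower, and library weights 2 higher and 3 lower. The 6 libraries alone gave 2 higher, as did leaving out KO_siCtrl replicate 2 or KO_let-7g replicate 2. Has2, whose enzyme spins out hyaluronan at the cell surface, rose from 1.70, 1.92 and 0.979 to 9.55, 10.5 and 11.7 (log2 fold change 2.21, adjusted p = 0.000323), and its knockdown libraries all exceeded its controls several times over. Among matrix proteases and inhibitors 5 of 35 tested members were called higher and 5 lower, with a median log2 fold change of 0.10. Mmp11, stromelysin 3, rose from 6.64, 7.22 and 7.22 to 16.7, 25.2 and 20.9 FPKM (log2 fold change 1.43, adjusted p = 0.000383) and the protease inhibitor gene Timp1 from 56.8, 82.5 and 66.6 to 119, 157 and 130.3 (log2 fold change 0.98, adjusted p = 0.000507). Mmp19 (12.8, 12.4 and 14 against 5.12, 4.86 and 5.57, log2 fold change -1.18, adjusted p = 0.000195) and the aggrecanase gene Adamts4 (-1.06) fell. Median of ratios scaling called 8 higher. Under the replicate block 10 were higher and 8 lower. Further settings called 11 higher and 11 lower with library weights and 8 lower with the 6 libraries alone. Leave-one-out counts were 3 lower without KO_siCtrl replicate 2 or KO_siNr6a1 replicate 0.

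Cell adhesion receptors and guidance cues held several of the largest changes. Of integrins and laminins 3 of 20 tested members were called higher and 6 lower, with a median log2 fold change of 0.04. Beside Itgb7, the integrin genes Itga3 (87.4, 86.0 and 110.1 against 55.4, 57.7 and 59.9 FPKM, log2 fold change -0.69, adjusted p = 0.00123) and Itga10 (-0.74) fell. The laminin chains diverged: Lamc1, a gamma chain, rose from 48.1, 38.1 and 36.4 to 98.2, 83.3 and 78.0 (log2 fold change 1.07, SE 0.156, adjusted p = 0.000612), and Lamb1, a beta chain, fell from 121, 102 and 127 to 69.1, 55.0 and 63.5 (log2 fold change -0.88, SE 0.158, adjusted p = 0.00201). Neither overlapped between groups. Lamc1 carries 3 copies of AGCCTT and Lamb1 0, but Itga10, which fell, carries the word too. Quantile scaling called 5 higher. A replicate block gave 5 higher and 6 lower. Other fits gave 5 higher with the 6 libraries alone.

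Of the semaphorin, plexin, ephrin and other guidance genes 7 of 41 tested members were called higher and 11 lower, with a median log2 fold change of -0.13. Of the 11 called lower 9 were ligands: with Sema7a, the genes Sema3e (13.2, 13.2 and 12 against 4.91, 4.32 and 5.14 FPKM, log2 fold change -1.25, SE 0.122, adjusted p = 6e-05), Sema5a (-1.05), Efnb2 (-0.99), Sema3f (-0.78), Sema4g, Sema4c, Sema3g and Slit3. The 7 called higher were receptors, among them Ephb6, Plxna2 (0.98) and both neuropilins, coreceptors of semaphorins and VEGF, with Nrp2 going from 64.3, 55.6 and 48.8 to 121, 111 and 100.2 (log2 fold change 0.97, SE 0.151, adjusted p = 0.000899). The shares of ligands and receptors among all 41 tested are not given here, so this split has no background to be read against. Nrp2 was higher than in KO_let-7g (1.14, adjusted p = 0.000207), and Sema7a was not called different (-0.26, adjusted p = 0.375). With single libraries left out there were 4 higher without KO_siNr6a1 replicate 1 and 7 lower without KO_siCtrl replicate 0 or KO_siCtrl replicate 2.

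Cell cycle genes did not move as one. Of mitosis genes 4 of 35 tested members were called higher and 12 lower, with a median log2 fold change of -0.21, below the all-gene median of -0.06. Nek2 fell the most, and Hmmr, a hyaluronan receptor that also binds spindle microtubules, went from 53.8, 52.8 and 45.3 to 36.4, 30.6 and 34.9 FPKM (log2 fold change -0.56, adjusted p = 0.00188). Plk1, a kinase of mitotic entry, fell from 95.9, 83.0 and 106 to 67.8, 63.8 and 72.3 (log2 fold change -0.47, adjusted p = 0.00536) and Cdk1, which drives mitosis, from 116, 117 and 104 to 88.3, 94.6 and 86.4 (log2 fold change -0.32, adjusted p = 0.00499). All 4 had groups apart. Foxm1, a transcription factor of mitotic genes with 4 copies of AGCCTT, went the other way, from 25.1, 25.1 and 27.1 to 39.1, 37 and 39.2 (log2 fold change 0.56, SE 0.0708, adjusted p = 0.00025). Against KO_let-7g 27 of the 35 members were called lower and 1 higher, beside 27.6% and 13.3% of all genes. Foxm1 was among the lower (-0.99, adjusted p = 8.25e-06). Other settings gave 2 higher with the 6 libraries alone and 19 lower with library weights. Leaving out single libraries gave 1 higher without KO_siCtrl replicate 1 or KO_siNr6a1 replicate 2, 2 higher without KO_siNr6a1 replicate 1.

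Of genes of DNA replication and nucleotide synthesis 8 of 45 tested members were called higher and 5 lower, with a median log2 fold change of -0.02. Rfc2, a subunit of the clamp loader, rose from 35.1, 30.8 and 34.6 to 65.4, 71.3 and 67.0 FPKM (log2 fold change 1.0, SE 0.0895, adjusted p = 4.26e-05) and Dut, which keeps uracil out of DNA, from 39.5, 35.9 and 34.3 to 71.7, 70.2 and 60.1 (log2 fold change 0.86, adjusted p = 8.35e-05). Rpa2 and Tyms, thymidylate synthase (34.4, 34.9 and 32.3 against 24.3, 26.9 and 24, log2 fold change -0.42, adjusted p = 0.00116), fell. Each of the 3 other scalings called 2 members lower. The block on replicate number gave 11 higher and 9 lower. The counts also came to 12 lower with library weights and 2 lower with the 6 libraries alone. There were, without single libraries, 5 higher without KO_siCtrl replicate 2 or KO_siNr6a1 replicate 1 and 2 lower without KO_siCtrl replicate 0 or KO_siNr6a1 replicate 2, 3 lower without KO_siCtrl replicate 1 or KO_siNr6a1 replicate 1.

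Of G1 cyclins, kinases and inhibitors 5 of 25 tested members were called higher and 5 lower, with a median log2 fold change of 0.05. Beside the rise of Cdk4, its partner Ccnd1, cyclin D1 and a let-7 target, fell from 142, 125 and 170.1 to 86.4, 58.4 and 90.9 FPKM (log2 fold change -0.90, adjusted p = 0.0039) while Ccnd3, cyclin D3, rose (log2 fold change 0.44, adjusted p = 0.00859). Cdkn2d, the Cdk4 inhibitor p19, fell from 31.1, 31.9 and 32.0 to 6.76, 11 and 8.79 (log2 fold change -1.75, SE 0.157, adjusted p = 4.26e-05). Ccne1, cyclin E1, fell from 43.8, 51.4 and 50.5 to 30.3, 31.7 and 34 (log2 fold change -0.59, adjusted p = 0.000668) and was below KO_let-7g by more (-1.43, adjusted p = 4.33e-06). The groups of these 5 genes were apart. Cdk4 was not called different from KO_let-7g (-0.20, adjusted p = 0.376), where it was at 255, 313 and 314. Blocking on the replicate number called 9 higher and 7 lower. Without single libraries the calls were 3 higher without KO_siCtrl replicate 1 or KO_siNr6a1 replicate 2, 2 higher without KO_siNr6a1 replicate 1 and 3 lower without KO_siCtrl replicate 1.

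Of p53 target genes 5 of 26 tested members were called higher and 3 lower, with a median log2 fold change of 0.01. Fas rose from 6.14, 8.44 and 4.49 to 26.2, 32.0 and 18.5 FPKM (log2 fold change 1.86, SE 0.273, adjusted p = 0.000632), while Gadd45a, a stress sensor, fell from 55.3, 60.5 and 57.5 to 20.7, 27.8 and 24.2 (log2 fold change -1.23, SE 0.146, adjusted p = 0.000178) and Mdm2, the ligase that degrades p53, from 41.6, 49.8 and 43 to 27.1, 29.7 and 30.1 (log2 fold change -0.61, adjusted p = 0.00164). None of the 3 overlapped between groups. Gadd45a was lower (-1.69, adjusted p = 1.85e-05) and Fas higher (1.54, adjusted p = 0.00123) than in KO_let-7g. Further settings called 3 higher without the filter on low values, 6 lower with library weights, and 5 lower with the 6 libraries alone. Leave-one-out counts were 1 to 6 higher over the libraries left out in turn and 5 lower without WT_siCtrl replicate 0.

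Growth factor genes beyond the EGF family were called in both directions. Of FGF, PDGF and VEGF ligands and receptors, a list that also holds Hgf and Csf1, 2 of 26 tested members were called higher and 5 lower, with a median log2 fold change of 0.06. Hgf, the hepatocyte growth factor, went from 14.5, 9.47 and 9.30 to 7.33, 5.54 and 5.72 FPKM (log2 fold change -0.73, adjusted p = 0.00956) and Pdgfc from 18.3, 17.6 and 19.6 to 11.6, 11.8 and 13.2 (log2 fold change -0.56, adjusted p = 0.00315). Kitl, the stem cell factor, rose from 14.2, 15.3 and 9.76 to 22.9, 25.5 and 22 (log2 fold change 0.82, adjusted p = 0.00629). Median of ratios scaling called 4 higher. Other fits gave 4 higher with library weights and 6 higher with the 6 libraries alone. Single libraries left out gave 5 higher without WT_siCtrl replicate 0 and 3 lower without KO_siCtrl replicate 1 or KO_siNr6a1 replicate 0 or KO_siNr6a1 replicate 2. In the IGF list, Igf1, a fetal and adult growth factor, rose from 3.82, 3.53 and 2.53 to 7.57, 13.7 and 8.88 (log2 fold change 1.34, SE 0.28, adjusted p = 0.00479) and was above KO_let-7g (1.57, adjusted p = 0.00127). Its 3 control libraries were close, and the lowest knockdown library was well above them.

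Arg2 had the largest change among arginine and polyamine genes. Of the list 2 of 22 tested members were called higher and 5 lower, with a median log2 fold change of -0.05. Arg2 splits arginine to ornithine, from which Odc1, ornithine decarboxylase, makes putrescine: Odc1 fell from 183, 171 and 257 to 106, 94.5 and 119.6 FPKM (log2 fold change -0.91, adjusted p = 0.00973). Smox, which oxidises spermine, fell from 19.4, 17.1 and 29.7 to 8.83, 9.92 and 11 (log2 fold change -1.05, adjusted p = 0.00726), and Slc7a2, an importer of arginine, rose from 13.9, 14.3 and 11.2 to 32.0, 32.5 and 30.4 (log2 fold change 1.21, SE 0.152, adjusted p = 0.000236). The groups of all 4 were apart. Odc1 (-0.76, adjusted p = 0.0165) and Smox (-1.18, adjusted p = 0.00248) were lower than in KO_let-7g, and Arg2 was not called different. Calls under the replicate block were 4 higher and 6 lower. Under other settings there were 5 higher with library weights. With single libraries left out there were 1 higher without KO_siCtrl replicate 1 or KO_siCtrl replicate 2 or KO_siNr6a1 replicate 0 or KO_siNr6a1 replicate 2.

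Of N-glycan branching enzymes 4 of 26 tested members were called higher and 7 lower, with a median log2 fold change of -0.08. Fut8, which adds core fucose, fell from 24.2, 25.9 and 23.4 to 9.11, 10.2 and 10.5 FPKM (log2 fold change -1.22, SE 0.0974, adjusted p = 2.86e-05). The sialyltransferase gene St3gal1 (10.6, 8.38 and 13.2 against 4.04, 2.91 and 4.40, log2 fold change -1.29, adjusted p = 0.000292) and Mgat3, which adds the bisecting sugar (36.7, 30.3 and 34.3 against 17, 16 and 15.8, log2 fold change -1.01, adjusted p = 4.52e-05), fell too. The galactosyltransferase genes B4galt1 (1.26) and B4galt5 (0.88) rose. No groups overlapped in these 5 genes. Leaving out single libraries gave 2 higher without KO_siCtrl replicate 0 or KO_siNr6a1 replicate 1.

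Splicing regulators changed in opposite directions within families. Of the CELF, PTBP and MBNL list, which also holds Qk, 5 of 13 tested members were called higher and 4 lower, with a median log2 fold change of -0.01. Ptbp2, the neural form of the polypyrimidine tract protein, fell from 56.3, 66.7 and 51.5 to 15.8, 14.7 and 15.4 FPKM (log2 fold change -1.85, SE 0.125, adjusted p = 1.33e-05), and its general form Ptbp1 rose from 165, 157 and 191 to 223, 221 and 244 (log2 fold change 0.43, adjusted p = 0.00478). Celf4 fell from 19.3, 24.1 and 21.9 to 4.86, 4.89 and 5.42 (log2 fold change -1.91, adjusted p = 1.7e-05). Mbnl1 rose from 18.7, 23.4 and 16 to 46.8, 50.7 and 48 (log2 fold change 1.3, adjusted p = 0.000196) and Mbnl2 was called lower (-0.43). The groups were apart for each of these genes. Each of the 3 other scalings called 2 members lower. The counts also came to 2 lower without the filter on low values. There were, without single libraries, 2 lower without KO_siCtrl replicate 0 or KO_siCtrl replicate 1 or KO_siNr6a1 replicate 1 or KO_siNr6a1 replicate 2.

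Among Ras and Myc family genes 7 of 22 tested members were called higher and 6 lower, with a median log2 fold change of 0.03. Mxd4 (10.6, 8.07 and 7.45 against 20.05, 21.3 and 18 FPKM, log2 fold change 1.11, adjusted p = 0.00101) and Mxd1 (6.16, 6.84 and 6.91 against 3.26, 3.71 and 3.16, log2 fold change -0.80, adjusted p = 0.00101), both antagonists of Myc that share the partner Max, went opposite ways. Of smooth muscle contractile genes 6 of 20 tested members were called higher and 2 lower, with a median log2 fold change of 0.27. Acta2, smooth muscle actin, rose from 18.5, 18.2 and 14.4 to 41.5, 46.0 and 37.1 (log2 fold change 1.24, SE 0.165, adjusted p = 0.000351), under the mean of 1282 in Dicer f/f cells. Of YAP/TAZ pathway and target genes 4 of 25 tested members were called higher and 6 lower, with a median log2 fold change of -0.17. The partner factors Tead1 (0.94, 8 copies of AGCCTT) and Tead2 (1.14) rose, and Wwtr1, which encodes TAZ, fell from 56.4, 58.9 and 53.2 to 40.7, 37.1 and 37.4 (log2 fold change -0.54, adjusted p = 0.000542). A replicate block gave 5 higher and 11 lower. Other fits gave 7 higher and 10 lower with library weights. Single libraries left out gave 3 lower without KO_siNr6a1 replicate 1.

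Nuclear receptors, the superfamily of Nr6a1 itself, were split. Of them 4 of 26 tested members were called higher and 4 lower, with a median log2 fold change of 0.06. Rarg, a retinoic acid receptor, rose from 22, 22.6 and 24.9 to 39.0, 48.5 and 46.2 FPKM (log2 fold change 0.91, SE 0.116, adjusted p = 0.000265) and Rxra, the shared partner of many receptors, from 11.5, 11.4 and 11.5 to 16.7, 17.8 and 16.7 (log2 fold change 0.53, adjusted p = 0.00674). Nr2f2, the receptor COUP-TFII, fell from 32.0, 32.5 and 32.6 to 18.7, 21.3 and 21.3 (log2 fold change -0.64, SE 0.0853, adjusted p = 0.000345) and Ppard from 48.3, 44.8 and 66.5 to 26.8, 30.04 and 31.4 (log2 fold change -0.82, adjusted p = 0.00984). Groups were apart in all 4. The nuclear receptor list had 0 of 13 carriers of AGCCTT called lower and 4 of 13 others. Among all genes 12.1% of carriers and 19.7% of the others were called lower. The word was picked on these same fold changes, and its part in this list was not tested. Calls under the replicate block were 7 higher and 6 lower. Under other settings there were 8 higher with library weights.

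The genes reported as Nr6a1 targets in embryonic and germ cells gave little to compare. Of 8 such genes 7 lay below the filter: Pou5f1 was listed at 0 in the 3 KO_siCtrl libraries and in 2 of the 3 KO_siNr6a1 libraries, and Nanog was at 0.103, 1.15 and 0.330 FPKM in KO_siCtrl and at 0.817, 0.691 and 0.543 in KO_siNr6a1. Dnmt3b, a DNA methyltransferase and the 1 member tested, was at 3.74, 3.73 and 4.78 FPKM and 4.32, 3.45 and 4.94, and was not called (log2 fold change 0.04, SE 0.128, adjusted p = 0.852). The 19 pluripotency and germline genes were all below the filter. The extended receptor motif TCAAGGTCA on either strand was in a promoter of 3 of 1235 genes called higher (0.243%) and 3 of 1536 called lower (0.195%). It was in a promoter of 27 of the 9265 tested genes with a RefSeq promoter (0.291%). Counted by promoter, a different unit, it was in 0.423% of all 32851. These few genes allow no comparison.

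Genes known as let-7 targets, many of them oncofetal, were examined because Nr6a1 is one of them. Of that list 8 of 40 tested members were called higher and 9 lower, with a median log2 fold change of 0.02. E2f6, a repressing E2F, rose from 11.4, 11.3 and 11.2 to 21.4, 20.4 and 23.7 FPKM (log2 fold change 0.89, SE 0.0763, adjusted p = 3.49e-05), and its groups were apart. Hmga2 (0.02, adjusted p = 0.955), Igf2bp1 (-0.13, 0.395), Igf2bp2 (-0.04, 0.804) and Igf2bp3 (0.13, 0.456), named after their values were seen, were not called. Against KO_let-7g 27 of the 40 were called higher and 2 lower, beside 13.3% and 27.6% of all genes.

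At the other end, several lists had few calls as fitted here, among them large families of housekeeping genes. They had more with library weights or the replicate block. These settings also called more of all 11801 genes, 5528 and 5248 against 3474 as fitted here. Of respiratory chain subunits 1 of 81 tested members were called higher and 1 lower, with a median log2 fold change of -0.06, and of ribosomal protein genes 3 of 79 tested members were called higher and 2 lower, with a median log2 fold change of -0.06, both under the background shares. Of replication-dependent histone genes, whose transcripts mostly lack a poly(A) tail, 0 of 59 tested members were called higher and 5 lower, with a median log2 fold change of -0.10. Several histone genes are near-identical copies between which reads can be split, so single histone values are uncertain. Among Hox genes 1 of 20 tested members were called higher and 2 lower, with a median log2 fold change of -0.09, among imprinted genes 2 of 18 tested members were called higher and 2 lower, with a median log2 fold change of 0.03, and among microRNA processing genes 1 of 21 tested members were called higher and 2 lower, with a median log2 fold change of -0.07. With the replicate block, 6 respiratory chain genes were called higher and 11 lower, 7 ribosomal protein genes higher and 4 lower, 3 histone genes higher and 8 lower, 2 Hox genes higher and 7 lower, 4 imprinted genes higher and 5 lower, and 4 microRNA processing genes higher and 6 lower. Library weights called 10 respiratory chain genes higher and 11 lower, 7 ribosomal protein genes higher and 10 lower, 2 histone genes higher and 13 lower, 4 Hox genes higher and 5 lower, 2 imprinted genes higher and 4 lower, and 3 microRNA processing genes higher and 7 lower. The 3 other scalings called 2 to 3 respiratory chain genes and 5 to 6 ribosomal protein genes higher. Over the libraries left out in turn, the counts ran from 0 to 2 higher and 0 to 2 lower for respiratory chain subunits, from 2 to 4 higher and 1 to 2 lower for ribosomal protein genes, from 0 to 1 higher and 4 to 6 lower for replication-dependent histone genes, from 0 to 1 higher and 1 to 4 lower for Hox genes, from 2 to 2 higher and 1 to 2 lower for imprinted genes, and from 1 to 2 higher and 2 to 4 lower for microRNA processing and Argonaute genes.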

How the data were processed

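Poly(A) RNA was sequenced from 12 libraries of mouse mesenchymal stem cells in 4 groups of 3. The deposited values are FPKM per gene, made by the authors with TopHat 1.2.0, Cufflinks 1.0.3 and mouse build mm9, per the submitters' processing notes. Their settings, the use of strand and the read totals are not given in the sources used here. Depth is known only as a ratio between libraries.

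Genes with at least 1 FPKM in 3 of 12 libraries were kept (11801 of 21881). Values were put on the scale log2(FPKM + 1) and fitted with limma 3.58.1 in R 4.3.3, with 1 coefficient for each of the 4 groups (8 residual degrees of freedom), a trended prior and Benjamini-Hochberg adjustment over all genes. The threshold for a call was an adjusted p of 0.05. The fit was tested on simulated data. Tables and plots used Python 3.11.15, pandas 2.3.3, numpy 2.4.6 and matplotlib 3.10.9.

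Named genes were Nr6a1, Dicer1, the 15 largest called rises and falls without overlap of the groups, and of each list up to 6 called members with the smallest adjusted p. Other members, such as Sfrp1, Wif1, Lef1, Smad1, Id3, Postn, Efnb2 and Mbnl2, were named after their values were seen, and a few genes are not reported here. The comparison, its members and the 57 lists were chosen with earlier results of these data known. Libraries with the same number deviated together (r = 0.30, 0.14 and 0.24 for numbers 0, 1 and 2, each over 0.1), so a fit with the number as a block is given where it moved a printed count of a list's calls by over 1.5 times. That pairing comes from the data, since the labels give only the number.

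For 3′ UTR words, the longest annotated 3′ UTR of each gene (GENCODE M21, GRCm38, matched by symbol) was used, which may not be the one these cells use. KO_siNr6a1 is set against both KO_siCtrl and KO_let-7g, and these comparisons share the KO_siNr6a1 libraries. Alternatives covered the pseudocount, the filter, 3 scalings, the trend, library weights, the block, the 6 libraries alone and each library left out. The subsets by 3′ UTR word were added after seeing the data.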

Additional observations from a re-analysis of the deposited data

How the results depend on the processing

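Across the 23 other settings listed under the processing no called gene changed sign. Library weights called 5528 genes (2370 higher and 3158 lower), the replicate block 5248 (2161 higher and 3087 lower), and genes with a 3′ UTR without AGCCTT, an alternative chosen after seeing the data, 1685 (462 higher and 1223 lower). Leaving out 1 library at a time gave 2539 to 3789 called genes, 1169 to 1675 higher and 1360 to 2114 lower, with Nr6a1 in KO_siNr6a1 against KO_siCtrl between -1.54 and -1.39 and Dicer1 in KO_siNr6a1 against KO_siCtrl between -0.31 and -0.18 on the log2 scale. Dicer1 was called with library weights only (-0.26, adjusted p = 0.0325). Other pseudocounts, filters and scalings called 2974 to 3513 genes. Of 265 named genes called, 214 kept their call in each of these settings that tested them and 51 lost it in at least 1. Of 100 counts of list members called (50 lists with at least 5 tested, each way), library weights moved 44 by over 1.5 times, the replicate block 42, the 6 libraries alone 16, no filter 15, a filter at 5 FPKM 12, and the 3 scalings 5 to 13. Leaving out 1 of the 6 compared libraries moved from 16 (KO_siCtrl replicate 0) to 29 (KO_siNr6a1 replicate 1). For libraries of the other groups it moved 1 to 8. Counts with the block stand beside each printed count of a list's calls that it moved so. The cause of these movements was not tested. Each group has 3 libraries and read totals are unknown, so the precision of single values of genes near 1 FPKM and of short entries is not known.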

Other observations

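Immune and secreted genes held a few called members each. Of interferon-induced genes 7 of 46 tested members were called higher and 1 lower, with a median log2 fold change of 0.16. Gbp2, an interferon-induced GTPase, rose from 1.89, 1.37 and 0.836 to 5.37, 4.86 and 3.10 FPKM (log2 fold change 1.2, SE 0.249, adjusted p = 0.00459), and Ifit2 fell from 7.77, 8.42 and 5.83 to 4.07, 4.31 and 3.63 (log2 fold change -0.73, adjusted p = 0.00265). Quantile scaling called 2 lower. The block on replicate number gave 8 higher and 2 lower. The counts also came to 4 higher without the filter on low values, 4 higher among genes of at least 5 FPKM, 4 lower with library weights, and 2 lower with the 6 libraries alone. There were, without single libraries, 4 higher without KO_siCtrl replicate 2 and 2 lower without WT_siCtrl replicate 0 or WT_siCtrl replicate 2 or KO_siNr6a1 replicate 1. Of genes of MHC class I antigen presentation 4 of 24 tested members were called higher and 0 lower, with a median log2 fold change of 0.28, and Tapbp, tapasin, which loads peptides onto MHC class I, rose from 78.8, 73.3 and 73.6 to 159, 199.5 and 151 (log2 fold change 1.15, SE 0.125, adjusted p = 0.000105). Calls numbered 1 lower with library weights. Without single libraries the calls were 8 higher without WT_siCtrl replicate 0, 2 higher without KO_siNr6a1 replicate 0. Of the interleukin-6 family 3 of 12 tested members were called higher and 2 lower. The replicate block gave 5 higher and 3 lower, library weights 5 higher, and libraries left out in turn 3 to 5 higher and 1 to 2 lower. Stat3, the transcription factor of its receptors, rose from 19.4, 18.1 and 16.6 to 46.7, 45.8 and 41.9 (log2 fold change 1.27, SE 0.0997, adjusted p = 2.67e-05). Il6ra, a receptor chain, rose from 7.67, 6.33 and 5.69 to 16.3, 13.7 and 12.5 (log2 fold change 1.01, adjusted p = 0.000646), and each carries 6 copies of AGCCTT. Lif, which also carries the word, was called lower (-0.49), a call lost in 8 of 23 other settings. Of the interleukin-1 family 3 of 13 tested members were called higher and 3 lower, and 1 lower without KO_siCtrl replicate 2 or KO_siNr6a1 replicate 1. Il1rl1, the interleukin-33 receptor, fell from 9.50, 8.05 and 12.8 to 4.09, 2.17 and 4.70 (log2 fold change -1.28, adjusted p = 0.0224) but lost its call without KO_siCtrl replicate 2, without KO_siNr6a1 replicate 1 or without the filter on low values (adjusted p up to 0.0874). The chemokine gene Ccl25 fell from 19.6, 19.5 and 15.8 to 7.62, 8.14 and 7.30 (log2 fold change -1.15, SE 0.092, adjusted p = 2.86e-05), and Ccl7 rose from 86.4, 104 and 79.1 to 177, 195 and 159.9 (log2 fold change 0.98, adjusted p = 0.00244). The groups of the genes given here with their FPKM levels did not overlap.

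Lineage and metabolic genes showed single large changes. Of osteoblast and cartilage genes 4 of 21 tested members were called higher and 2 lower, with a median log2 fold change of 0.08. Dlx5, an osteoblast transcription factor, rose from 3.51, 7.66 and 3.46 to 9.92, 16.1 and 13.7 FPKM (log2 fold change 1.33, adjusted p = 0.00823) and Sox9, a cartilage factor, from 13.2, 18.6 and 16.6 to 25.5, 38.4 and 34.6 (log2 fold change 0.97, adjusted p = 0.00218), and both were higher than in KO_let-7g (Dlx5 1.72, adjusted p = 0.00131, Sox9 0.75, adjusted p = 0.00619). Under the replicate block 7 were higher and 3 lower. Further settings called 2 higher and 1 lower among genes of at least 5 FPKM and 4 lower with library weights. Of adipocyte genes 4 of 18 tested members were called higher and 1 lower, with a median log2 fold change of -0.06, with Acsl1, which activates fatty acids, at 17.4, 18 and 16.2 and 32.5, 36.3 and 36.6 (log2 fold change 0.99, adjusted p = 4.52e-05). A replicate block gave 6 higher and 4 lower. Single libraries left out gave 0 to 2 lower over the libraries left out in turn. Of lysosomal genes 8 of 40 tested members were called higher and 3 lower, with a median log2 fold change of 0.08. Median of ratios scaling called 13 higher. Calls under the replicate block were 14 higher and 4 lower. Under other settings there were 15 higher and 5 lower with library weights. Of glutathione and Nrf2 antioxidant genes 6 of 38 tested members were called higher and 5 lower, with a median log2 fold change of -0.06. The 6 called higher all carried AGCCTT, beside 68.5% of all genes called higher. Mgst1 rose from 16.4, 23.5 and 12.4 to 52.9, 77.3 and 65.4 (log2 fold change 1.87, adjusted p = 0.00312) and Gsta4, another glutathione transferase, fell from 38.3, 51.8 and 44.1 to 17.2, 20.3 and 20.7 (log2 fold change -1.16, adjusted p = 0.00115). With the replicate block, 8 were called higher and 8 lower. Other settings gave 11 higher with library weights. Leaving out single libraries gave 3 lower without KO_siCtrl replicate 1 or KO_siNr6a1 replicate 0 or KO_siNr6a1 replicate 2. Of glycolysis and hypoxia genes 6 of 33 tested members were called higher and 3 lower, with a median log2 fold change of -0.03, led by Aldoc, an aldolase, at 8.57, 7.28 and 7.45 and 17, 21.6 and 19.97 (log2 fold change 1.22, SE 0.11, adjusted p = 4.26e-05). The block on replicate number gave 7 higher and 7 lower. The counts also came to 6 lower with library weights. There were, without single libraries, 2 higher without KO_siCtrl replicate 1 or KO_siNr6a1 replicate 1, 3 higher without KO_siNr6a1 replicate 0. Of Notch pathway genes 5 of 13 tested members were called higher and 0 lower, with a median log2 fold change of 0.19, and each called member differed by less than 1 log2 unit. Blocking on the replicate number called 6 higher and 2 lower. Calls numbered 3 higher and 1 lower without the filter on low values, 3 higher among genes of at least 5 FPKM, and 1 lower with library weights. Without single libraries the calls were 3 higher without KO_siCtrl replicate 1 or KO_siCtrl replicate 2, 2 higher without KO_siNr6a1 replicate 1 and 1 lower without WT_siCtrl replicate 2 or KO_let-7g replicate 2. Of amino acid stress and tRNA synthetase genes 6 of 37 tested members were called higher and 1 lower, with a median log2 fold change of 0.03. Under the replicate block 8 were higher and 3 lower. Further settings called 11 higher and 0 lower with library weights, 0 lower without the filter on low values, 0 lower under median of ratios scaling, and 0 lower under upper quartile scaling. Leave-one-out counts were 2 higher without KO_siCtrl replicate 0 or KO_siNr6a1 replicate 2 and 0 to 1 lower over the libraries left out in turn. Of endoplasmic reticulum folding genes 3 of 20 tested members were called higher and 1 lower, with a median log2 fold change of 0.08. Other fits gave 5 higher with library weights and 0 lower under median of ratios scaling. Single libraries left out gave 0 lower without KO_siCtrl replicate 0 or KO_siCtrl replicate 2 or KO_siNr6a1 replicate 1 or KO_siNr6a1 replicate 2.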
